A study of Mus musculus with 4 samples.

Results

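The genes described here are Shh, the signalling ligand of the posterior limb bud, and 7 genes that act around it: Hhat, Disp1, Scube1 and Scube3, which process or release the ligand, Hand2, which lies upstream of it, Grem1, which links it to the ridge, and Lmbr1, whose intron houses its limb enhancer. They are 8 of the 35689 genes in the table, taken by gene symbol, and all 8 were among the 12809 genes tested. They were chosen by name with their TPM difference between knockout and control known, so their values in that comparison are given as a description. RNA was measured in 4 libraries, each from both forelimb buds of a single mouse embryo at E11.5. The 2 knockout libraries carried PrxCre/+;Smarcc1c/c and the 2 controls Prx+/+;Smarcc1c/c, so both groups were homozygous for the conditional Smarcc1 allele and only the knockouts carried Cre. PrxCre is active in limb bud mesenchyme, which leaves ectoderm, blood and endothelium outside its domain. In each group replicate 1 had 40 somites and replicate 2 had 39, and nothing says whether the embryos were littermates. The product of Smarcc1, BAF155, belongs to the core of BAF, a chromatin remodelling complex.

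Shh is made by a small group of posterior mesenchymal cells called the zone of polarising activity, and it sets the number and identity of the digits. Hand2 is a basic helix-loop-helix factor that switches Shh on through an enhancer lying in an intron of Lmbr1, far from the gene itself. Hhat attaches a fatty acid to the ligand, Disp1 lets the lipid-carrying protein out of the cell, and SCUBE proteins carry it away. Shh keeps Grem1 on, Grem1 blocks BMP, and the release from BMP keeps FGF genes active in the apical ridge, which in turn maintains Shh.

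The libraries were alike in breadth, with between 12555 and 12689 genes at a TPM (a level scaled for transcript length and library total) of 1 or more. Read depth is unknown, because TPM keeps no record of it. The labels give 310 and 330 ng of RNA for the knockouts and 340 and 580 ng for the controls (replicate 1 then 2). The part of the RNA amount in the differences was not tested. Mitochondrial genes made up 10.1% and 9.91% of the TPM at 40 somites (knockout then control) and 7.58% and 8.05% at 39. Their part in the differences between stages was not tested. Smarcc1 measured 112 and 119.6 TPM in the controls but 46.2 and 38.4 TPM where Cre was present. Ddx3y, which is Y-linked, was near 0 at 40 somites (0.0498 and 0.013 TPM, knockout then control) but reached 28.3 and 30.2 TPM at 39, so that stage and sex cannot be told apart. The limb mesenchyme gene Prrx1 and the forelimb gene Tbx5 were present in all 4 libraries. Prrx1 was lower with Cre, at 129.9 and 139.8 TPM against 188 and 201 TPM without. Tbx5 measured 31.9 and 40.2 TPM with Cre against 32.1 and 43.1 TPM without.

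RefSeq promoter windows (GRCm38.p6) were matched for 7 of the 8 genes, and the table holds no window for Shh. The bases upstream of the start are shown for Hand2, Grem1 and Scube1, and for Rnf32, the neighbour of Lmbr1 described below, because these genes have the values that the later comparisons turn on. Each is written 5′ to 3′ along the gene, with CpG dinucleotides in capitals.
Hand2 (chr8:57320733-57320982, plus strand): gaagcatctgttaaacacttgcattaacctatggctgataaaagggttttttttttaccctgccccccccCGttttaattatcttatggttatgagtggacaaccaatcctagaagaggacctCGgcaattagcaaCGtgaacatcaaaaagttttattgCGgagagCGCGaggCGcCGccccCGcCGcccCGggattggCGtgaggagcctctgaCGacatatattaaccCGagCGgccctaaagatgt
Grem1 (chr2:113758649-113758898, minus strand): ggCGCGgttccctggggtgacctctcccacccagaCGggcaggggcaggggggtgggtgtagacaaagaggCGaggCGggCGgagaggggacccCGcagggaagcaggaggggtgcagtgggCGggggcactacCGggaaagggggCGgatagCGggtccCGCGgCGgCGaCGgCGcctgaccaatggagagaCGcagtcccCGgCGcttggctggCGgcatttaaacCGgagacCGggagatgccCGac
Scube1 (chr15:83725040-83725289, minus strand): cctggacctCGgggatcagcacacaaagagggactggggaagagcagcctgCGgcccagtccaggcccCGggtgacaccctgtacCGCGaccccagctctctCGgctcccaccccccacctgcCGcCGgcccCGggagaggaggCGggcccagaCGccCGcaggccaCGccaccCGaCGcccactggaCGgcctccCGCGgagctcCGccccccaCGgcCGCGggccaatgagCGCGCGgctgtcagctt
Rnf32 (chr5:29195743-29195992, plus strand): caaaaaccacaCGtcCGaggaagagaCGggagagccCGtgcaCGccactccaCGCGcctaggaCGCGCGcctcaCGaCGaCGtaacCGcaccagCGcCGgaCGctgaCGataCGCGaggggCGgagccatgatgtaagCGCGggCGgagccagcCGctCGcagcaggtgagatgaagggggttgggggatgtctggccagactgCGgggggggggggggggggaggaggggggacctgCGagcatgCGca
The windows of Scube1, Grem1 and Rnf32 were rich in CpG, with 32, 28 and 36 in 300 bases against a median of 7 over 32851 windows, and that of Hand2 held 17. The letters of 3 motifs were searched on both strands, and no window held more than 1 match. The GLI letters GACCACCCA occurred in no window of the 7 genes, and in 0.253% of all windows. The E-box CATCTG, which HAND proteins can bind, occurred in the Hand2 window and in no window of the other 6 genes, against 17.2% of all windows. The ETS letters ACCGGAAGT occurred once, in 1 of the 2 windows of Disp1, against 1.1% of all windows.

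Shh had the widest gap between genotypes of the 8 genes. The controls with 40 and 39 somites measured 17.5 and 14.6 TPM, the knockouts 4.59 and 6.38 TPM. Both knockouts lay below both controls, and the knockout mean was 0.341 of the control mean. On the log2(TPM + 1) scale, used for every difference here and understating the change of low genes, Shh differed by -1.41 ± 0.18 (SE, n = 2 per genotype), with a 95% interval from -1.85 to -0.96. Only 0.351% of all tested genes had a difference as low or lower. The gap was -1.73 between the embryos with 40 somites and -1.08 between those with 39. Shh (ENSMUSG00000002633) lies on chromosome 5 of mm10, from 28456815 to 28467256 on the minus strand, and the antisense gene 9530036O11Rik, not analysed here, covers 8983 bases of it. In RNA from whole buds, fewer Shh-producing cells and less Shh RNA per cell cannot be told apart.

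**Figure D1:**
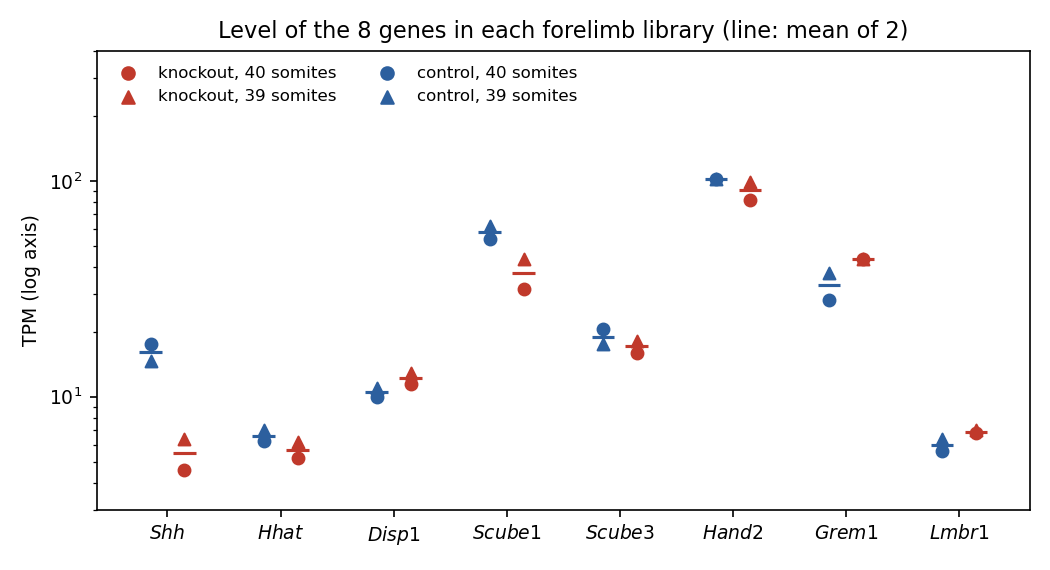
TPM of each of the 8 genes on a log axis, with controls in blue, knockouts in red, circles for 40 somites, triangles for 39, and a line at the mean of 2 libraries. Shh drops from 17.5 and 14.6 TPM to 4.59 and 6.38 TPM, while Hand2 stays above 80 TPM in every library.

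The other genes of ligand production differed less, and Scube1 was the one with the next largest gap. Scube1, a secreted carrier of the ligand, stood at 53.9 and 61.7 TPM in the controls and at 31.5 and 43.5 TPM in the knockouts. The groups did not overlap, and the difference was -0.63 ± 0.17, or -0.76 at 40 somites and -0.50 at 39. Its relative Scube3 stood at 20.5 and 17.5 TPM in the controls against 15.9 and 18.2 TPM in the knockouts, and these overlapped (-0.15 ± 0.14, 95% interval -0.49 to 0.20). Scube1 is thus the more abundant of the pair in every library, by 2.62 and 3.53 times in the controls and by 1.98 and 2.39 times in the knockouts. Scube2, the third member of the family, was under 0.1 TPM throughout and was not tested.

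Hhat, the acyltransferase that adds the fatty acid, stood at 6.22 and 6.98 TPM in the controls and at 5.19 and 6.15 TPM in the knockouts. Disp1, the transporter-like release protein, averaged 12.2 ± 0.952 TPM with Cre and 10.5 ± 0.724 TPM without (SD, n = 2). Neither pair of groups overlapped, yet the gaps were small, at -0.19 ± 0.15 for Hhat and 0.20 ± 0.13 for Disp1, and both 95% intervals held 0. Hhat shares 13449 bases with Kcnh1 on the other strand, and Kcnh1 did not pass 0.14 TPM in any library. The other Hedgehog ligands Ihh and Dhh were at most 0.108 and 0.068 TPM, so Shh was the one ligand gene of the family above 1 TPM in these buds. Disp3, too low for testing, measured 0.579 and 0.575 TPM with Cre and 0.125 and 0.0945 TPM without.

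Hand2, the activator upstream of Shh, had a small gap between the genotypes. It stood at 102 TPM in both controls and at 81.5 and 99.2 TPM in the knockouts with 40 and 39 somites. The groups did not overlap, as in 43.9% of all tested genes, and the difference was -0.18 ± 0.13, with a 95% interval from -0.49 to 0.13. The knockout with 39 somites lay close to the controls, and the gap was -0.32 at 40 somites and -0.03 at 39. Hand2 shares 3251 of its bases with the antisense RNA Hand2os1, not analysed here. The ratio of Shh to Hand2 within a library, which a scaling factor per library does not alter, was 0.172 and 0.144 in the controls and 0.0563 and 0.0643 in the knockouts.

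Of the 15 other factors listed as activators upstream of limb Shh, 2 fell, 0 rose and 13 stayed short of the threshold, an adjusted p (Benjamini-Hochberg) under 0.05 in limma. Of all tested genes 1.30% passed, 0.812% higher and 0.492% lower. The 2 were Lhx2 and Lhx9, LIM homeobox genes of distal mesenchyme that act upstream of Shh. Lhx2 fell from 32.4 and 49.2 TPM to 8.26 and 10.6 TPM (-1.98 ± 0.22, limma adjusted p = 0.0211). Lhx9 fell from 68.7 and 105 TPM to 32.4 and 33.2 TPM (-1.35 ± 0.20, limma adjusted p = 0.0416), a call that was lost after quantile scaling, when the variance trend was dropped, and when control replicate 2 was left out. Lmx1b, the dorsal homeobox gene, measured 43.9 and 54.5 TPM with Cre against 25.6 and 31.6 TPM without, and Hoxd11 at 83.8 and 111 against 129 and 168 TPM. Neither passed (limma adjusted p = 0.105 and 0.227), and with stage in the model both did (0.0177 and 0.0225). In that fit the list including Hand2 had 4 genes lower and 1 higher past the threshold, where 4.16% of all tested genes passed. With genotype alone, the unadjusted limma p was under 0.05 for 5 genes lower and 1 higher, against 13.7% of all tested genes. The list including Hand2 had a median of -0.18, against 0.01 over all tested genes.

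Among 7 genes that restrain limb Shh, 5 were tested and 0 passed. The unadjusted limma p was under 0.05 for 4 of the 5, 3 lower and 1 higher, against 13.7% of all tested genes. Alx4, an anterior homeobox gene, measured 2.99 and 5.36 TPM with Cre against 10.5 and 14.1 TPM without (-1.39 ± 0.26, limma adjusted p = 0.0797). Etv4 stood at 52.9 and 53.6 against 68.9 and 73.1 TPM, and Etv5 at 31.1 and 32.6 against 38.2 and 42.2 TPM, both being ETS factors that respond to FGF. Twist1, a mesenchymal helix-loop-helix factor, stood at 163 and 198 against 129 and 151 TPM. With stage in the model Alx4 and Etv4 passed (limma adjusted p = 0.0158 and 0.0490), where 4.16% of all tested genes passed. Gata4 and Gata6 were below 1 TPM in all 4 libraries.

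Grem1, the secreted BMP antagonist, was the one gene of the 8 with an interval wholly above 0. Its controls measured 28.1 TPM at 40 somites and 37.5 TPM at 39, and both knockouts 43.5 TPM. The groups did not overlap, and the difference was 0.41 ± 0.16, with a 95% interval from 0.03 to 0.79. Most of it came from the embryos with 40 somites, at 0.61 against 0.21 at 39. That interval is not adjusted for the number of genes, and Grem1 did not pass over all genes (limma adjusted p = 0.322, or 0.126 with stage in the model). The ratio of Grem1 to Shh was 1.6 and 2.56 without Cre and 9.46 and 6.81 with it, most of which came from Shh.

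**Figure D2:**
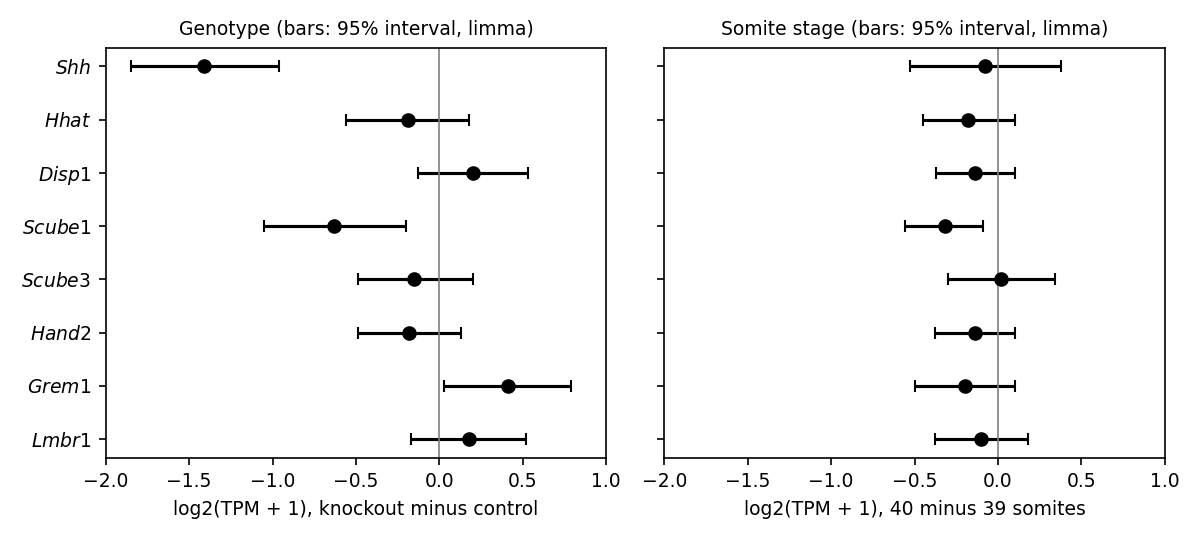
Difference on the log2(TPM + 1) scale for each of the 8 genes with its 95% interval from limma, for genotype on the left and somite stage on the right. For genotype the intervals of Shh and Scube1 lie below 0 and that of Grem1 above 0, from 0.03 to 0.79. For stage, which cannot be told apart from sex, the interval of Scube1 alone lies off 0, from -0.56 to -0.09.

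Of 14 other genes of the loop between Shh, Grem1 and the ridge, 3 fell, 0 rose and the remaining 11 did not pass. Over all tested genes 0.492% passed as lower and 0.812% as higher. With Grem1 counted, the list had 5 genes lower and 2 higher at an unadjusted limma p under 0.05, against 13.7% of all tested genes. Fgf8, which encodes the FGF made by the apical ridge, measured 116 and 98.2 TPM in the controls and fell to 53.7 and 45.6 TPM (-1.09 ± 0.14, limma adjusted p = 0.0283). Msx2, a homeobox gene that responds to BMP, fell by 1.62 ± 0.20 (limma adjusted p = 0.0283), and Cyp26b1, which breaks down retinoic acid, fell by 1.36 ± 0.19 (limma adjusted p = 0.0373). Bmp7, a BMP ligand, measured 20.9 and 19.8 TPM with Cre against 26.2 and 27.1 TPM without (limma adjusted p = 0.225). Fgf8 and Msx2 no longer passed after median-ratio or quantile scaling, or when either control was left out. Cyp26b1 no longer passed without control replicate 2. Beside these, the differences of all 14 markers of surface ectoderm and ridge, Fgf8 among them, were below 0. Their median was -0.51, against 0.01 over all tested genes. Of the 14, 2 passed as lower, where 0.492% of all tested genes did. None was at 0 TPM in all libraries, and the 14 summed to 575 and 378 TPM with Cre against 792 and 547 TPM without. Their part in the values of Fgf8 and of the loop was not tested.

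The ratio of Shh to Fgf8 was 0.151 and 0.149 in the controls, against 0.0855 and 0.140 in the knockouts with 40 and 39 somites. The knockout with 39 somites therefore came near the controls on this ratio, and the other did not. Against Hand2 and Lmbr1 both knockouts lay well below both controls.

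**Figure D3:**
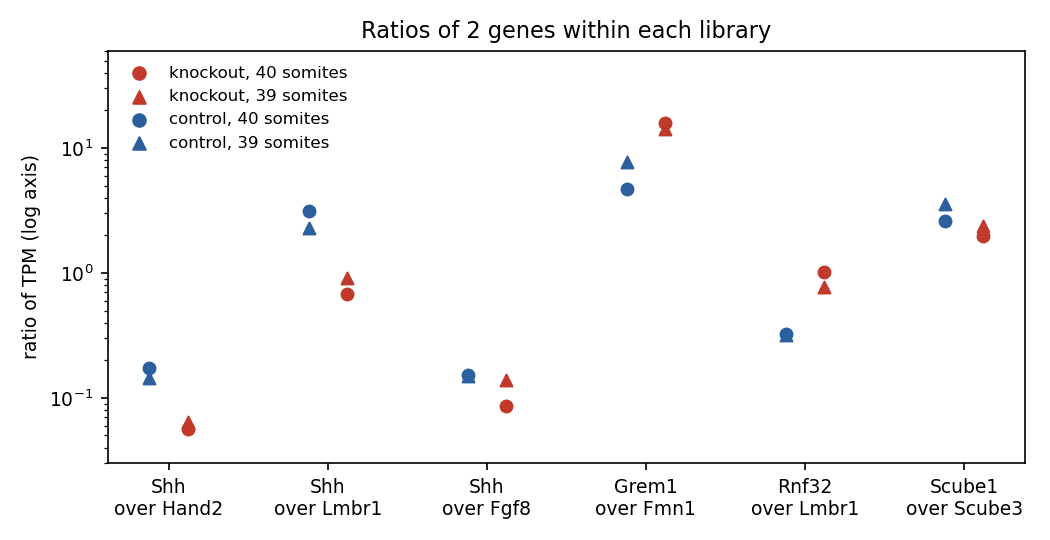
Ratios of TPM between 2 genes of the same library on a log axis, with colours for genotype and shapes for somite stage as before. Shh over Hand2 and Shh over Lmbr1 are lower in both knockouts, Grem1 over Fmn1 and Rnf32 over Lmbr1 are higher in both, and Shh over Fgf8 in the knockout with 39 somites (0.140) is close to the controls.

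Lmbr1, which encodes a membrane protein and is best known for the Shh enhancer in its intron, did not share the low level of Shh. It stood at 5.58 and 6.39 TPM in the controls and at 6.80 and 6.98 TPM in the knockouts (0.18 ± 0.14, 95% interval -0.17 to 0.52). Lmbr1 (ENSMUSG00000010721) lies on chromosome 5 from 29229802 to 29378390, and its start is 911 kb from that of Shh. The ratio of Shh to Lmbr1 was 3.14 and 2.29 in the controls and 0.675 and 0.913 in the knockouts.

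Rnf32, a RING finger gene that lies between Shh and Lmbr1, rose in the knockouts. It stood at 1.81 and 2.02 TPM in the controls and at 6.91 and 5.43 TPM in the knockouts, a mean 3.22 times as high. The difference was 1.29 ± 0.17 (SE, 2 libraries each, limma adjusted p = 0.0328), at 1.49 between the embryos with 40 somites and 1.09 between those with 39. Rnf32 (ENSMUSG00000029130) lies on chromosome 5 from 29195992 to 29228457 on the plus strand, and its start is 729 kb from that of Shh. The gene was singled out as the one of 19 tested neighbours, within 1 Mb of Shh, Hand2 or Grem1, that passed. Of all tested genes 1.30% passed. Its call ended with either control left out (limma adjusted p = 0.0949 and 0.0880), under median-ratio scaling (0.0509) and with no filter on low values (0.182). The pseudogene Gm7420, on the same strand, overlaps it by 842 bases and was at most 0.755 TPM.

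The other 4 tested genes around Shh besides Lmbr1, namely Paxip1, Insig1, Rbm33 and Nom1, ranged from -0.04 to 0.24. Of the 6 tested neighbours of Hand2, 0 passed, with differences from -0.25 for Galnt7 to 0.43 for Fbxo8. Of the 7 tested neighbours of Grem1, 0 passed, and 1 pseudogene among them, Gm21596, was high in 1 library of each genotype, ranging from 4.47 to 66.8 TPM. At an unadjusted p under 0.05 in limma there was 1 of the 6 around Hand2 (Fbxo8) and 1 of the 7 around Grem1 (Fmn1), shares near the 13.7% of all tested genes.

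Fmn1, a formin gene whose introns hold limb enhancers of Grem1, stood at 5.96 and 4.89 TPM in the controls and at 2.74 and 3.04 TPM in the knockouts. The groups did not overlap, but Fmn1 did not pass over all genes (-0.72 ± 0.16; limma, Benjamini-Hochberg adjusted p = 0.121), with or without stage in the model. Grem1 and Fmn1 thus lay on opposite sides of 0, and the ratio of Grem1 to Fmn1 was 4.71 and 7.67 in the controls and 15.9 and 14.3 in the knockouts. The starts of both genes are 431 kb apart on chromosome 2, where Grem1 runs from 113746164 to 113758646 and Fmn1 from 113327736 to 113716767. Several antisense genes overlap Fmn1, and the sources used here do not say whether strand was used in counting.

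**Figure D4:**
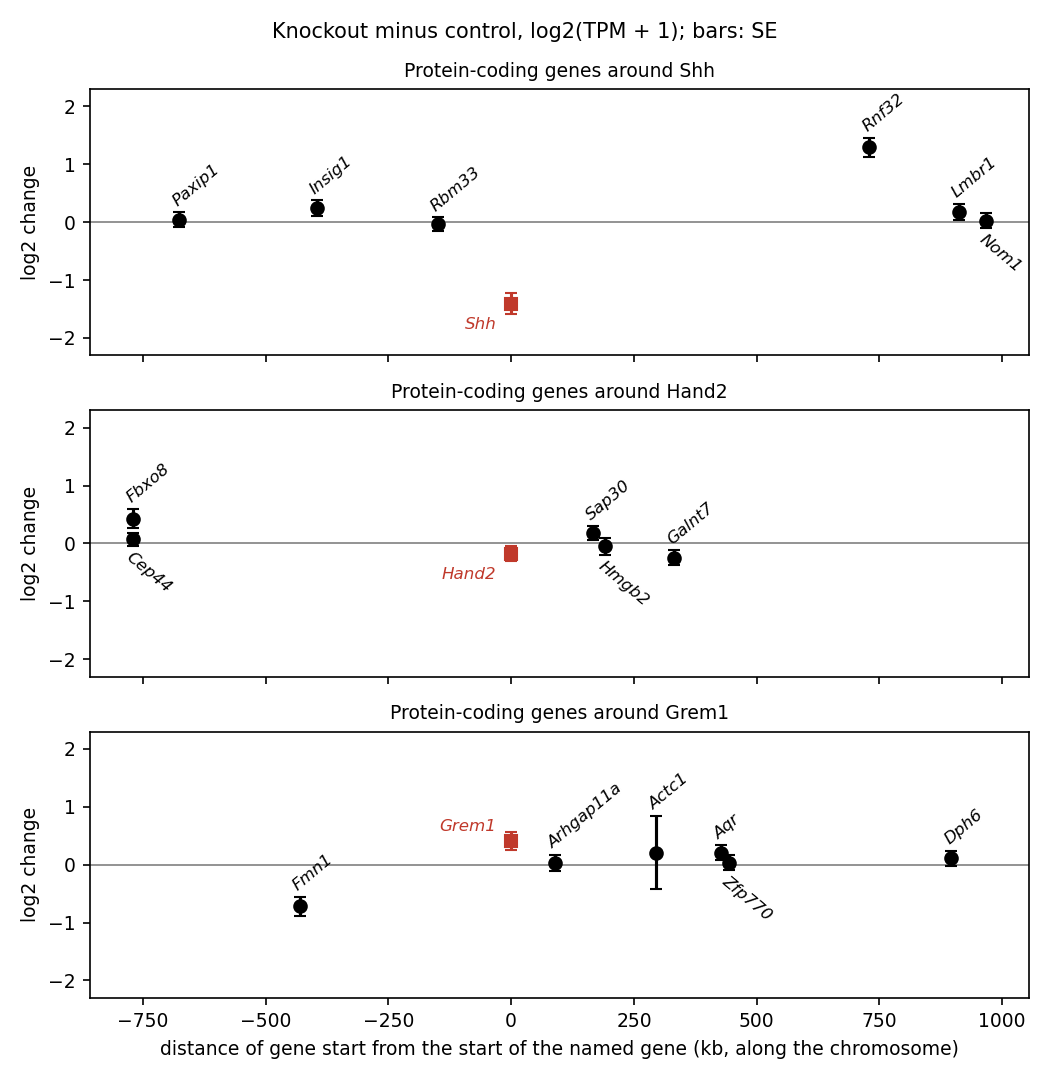
Difference between knockout and control on the log2(TPM + 1) scale, with its SE, for tested protein-coding genes within 1 Mb of Shh, Hand2 and Grem1 (red squares), plotted by distance between gene starts in kb. Rnf32, 729 kb from Shh, lies at 1.29 while Shh lies at -1.41, and Fmn1 lies at -0.72 beside Grem1 at 0.41.

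As a set, the 8 genes did not lie on one side of 0. The difference was above 0 in 3 and below 0 in 5, with a median of -0.16. Shh was the 1 gene of the 8 past the threshold (limma, Benjamini-Hochberg adjusted p = 0.0319), where 1.30% of all tested genes passed, and nothing is read from this since the choice of genes used the same comparison. That call ended when either control was left out (limma adjusted p = 0.0942 and 0.0699) and under both other scalings. With stage in the model, 2 of the 8 passed, Scube1 joining Shh (limma adjusted p = 0.0385 and 0.0295), where 4.16% of all tested genes passed. That fit has 1 residual degree of freedom, and its genotype calls were not tried on simulated data. The difference of Scube1 was -0.85 without knockout replicate 2, the knockout nearer the controls, and -0.40 without knockout replicate 1. The groups did not overlap in 7 of the 8 genes, 3 higher and 4 lower, where 43.9% of all tested genes had groups that did not overlap, 22.7% higher and 21.2% lower. An exact permutation test of 2 libraries against 2 cannot give a two-sided p below 0.333.

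The order of the levels differed between genotypes in the place of Shh, of Grem1 and Scube1, and of Lmbr1 and Hhat. In the controls it ran Hand2, Scube1, Grem1, Scube3, Shh, Disp1, Hhat and Lmbr1, from means of 102 to 5.99 TPM. There the ranges of Scube3 and Shh met at 17.5 TPM as printed, and those of Hhat and Lmbr1 overlapped. In the knockouts Hand2 stayed at the top. Grem1, with a mean of 43.5 TPM, stood above Scube1, with 37.5 TPM, and their ranges met at 43.5 TPM as printed. Lmbr1 (6.80 and 6.98 TPM) lay above Hhat (5.19 and 6.15 TPM), and Shh overlapped with Hhat at the bottom of the order.

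Somite stage was not used to choose the genes, and it gave a comparison that could be tested, though one that cannot be told apart from sex. With genotype in the model, 0 of the 8 genes passed between 40 and 39 somites (limma, Benjamini-Hochberg adjusted p under 0.05), where 0.164% of all tested genes passed and 0.0703% passed as lower at 40 somites. Fits with stage in the model have 1 residual degree of freedom, and in simulated data more of the calls for stage were false than the nominal rate. At an unadjusted p under 0.05 there was 1 in limma, Scube1, against 21.6% of all genes. Scube1 was lower at 40 somites by a difference of -0.32 ± 0.09, as -0.45 in the knockouts and -0.19 in the controls, with a limma adjusted p of 0.176. The difference was below 0 in 7 of the 8 genes, and in 72.1% of all tested genes, whose median was -0.10. Shh gave -0.08 ± 0.17, with a 95% interval from -0.53 to 0.38, and Hand2 -0.14 ± 0.09, from -0.38 to 0.10. Scaling moved these values up. Under median-ratio and quantile scaling Shh turned to 0.01 and 0.00362, so that 6 of the 8 lay below 0, Hand2 came to -0.04 and -0.05, and Scube1 to -0.23 and -0.22. The share of all genes below 0 was then 52.0% and 53.1%.

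Genes that respond to Shh in the posterior bud had differences on both sides of 0. Of 15 such genes, 2 fell, 0 rose and 13 did not pass, where 0.492% of all tested genes passed as lower, and their median was 0.05. The T-box gene Tbx3 fell from 19.9 and 16.0 TPM to 6.21 and 8.41 TPM (-1.19 ± 0.18, limma adjusted p = 0.0465), and the zinc finger gene Sall1 from 26.2 and 34.6 TPM to 12.5 and 13.2 TPM (-1.16 ± 0.16, limma adjusted p = 0.0351). Tbx3 no longer passed after either other scaling, when the variance trend was dropped, or when either control was left out, and Sall1 no longer passed when control replicate 2 was left out. When low genes were not filtered out, apart from those at 0 in all libraries, limma called 0 genes (2338 had an unadjusted p under 0.05), so every call named here ended in that setting. Hhip, which encodes a decoy receptor, measured 2.73 and 4.51 TPM with Cre against 1.45 and 1.14 TPM without, and the zinc finger gene Osr1 at 17.4 and 20.7 against 10.9 and 8.18 TPM. Neither passed (limma adjusted p = 0.131 and 0.0797). Gli1 measured 41.9 and 38.8 TPM with Cre against 29.5 and 29.7 TPM without (0.43 ± 0.11, limma adjusted p = 0.162). Ptch1 was close to level, at 28.1 and 28.0 against 28.0 and 26.3 TPM (0.05 ± 0.11). At an unadjusted limma p under 0.05 the list had 4 genes higher and 4 lower, against 13.7% of all tested genes.

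The genes whose pattern over the 4 libraries was most like that of Shh were sought among 11343 named protein-coding genes off the sex chromosomes, by root mean square distance between log2 profiles centred on the controls. Tbx3 was the nearest, at 0.15, followed by Col9a3, a cartilage collagen gene, Tmem163, Ctsk, Mapk12, Cck, Gdf1, Sv2b, Rbfox3 and Phactr3, the last at 0.23. The median distance over all candidates was 1.02. Of the 10 genes, 8 had a control mean below 7 TPM, where the added 1 holds differences down. With a pseudocount of 0.1, 3 of the 10 stayed among the nearest, and by Pearson correlation 0 did, so the order is a property of the measure. Over 4 libraries 418 genes had a correlation with Shh of at least 0.95.

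Other cell types of the bud were read from marker lists with no marker at 0 in all libraries. Summed levels for 8 endothelial markers ran from 88.9 to 125 TPM with Cre and from 75.8 to 129 TPM without, and from 34.3 to 41.7 against 24.4 to 31.2 TPM for 6 myoblast markers. The 8 mesenchyme markers summed to 661 and 746 TPM with Cre against 680.5 and 826 TPM without, a sum that holds members with opposite differences. Pdgfra, a growth factor receptor gene, rose from 79.5 and 84.0 TPM to 162 and 173 TPM (limma adjusted p = 0.0165, but 0.0597 and 0.0524 with control replicate 1 or 2 left out). Msx1, a homeobox gene, fell from 81.5 and 109 TPM to 27.0 and 27.8 TPM (limma adjusted p = 0.0117). Both are named after their values were seen, as the 2 of the 8 that passed, where 1.30% of all tested genes passed. Prrx1 differed by -0.53 ± 0.11 (limma adjusted p = 0.101, or 0.0293 with stage in the model), and 5 of the 8 differences were below 0. The 9 erythroid markers summed to 12569.7 and 11956 against 9895 and 11275 TPM, the 6 nerve markers to 13.4 and 14.0 against 15.7 and 17.0 TPM, and the 6 macrophage markers to 13.1 and 10.5 against 13.3 and 22.4 TPM. The part of these in the values of the 8 genes was not tested.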

How the data were processed

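RNA-seq of 4 mouse forelimb libraries was used, 2 per genotype, each from 1 embryo. The authors deposited TPM values for 35727 Ensembl identifiers, and each column sums to 1000000. Salmon 1.9.0 and mm10 are named in the submitters' processing notes; the transcript set and strand setting are not given in the sources used. Symbols were found for 35422 identifiers (99.1%), 38 repeated symbols were summed, and coordinates, counted from 1, come from GENCODE on mm10.

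The values were tested as log2(TPM + 1) by limma 3.58.1 (R 4.3.3, eBayes with a trend, Benjamini-Hochberg adjusted at 0.05), for genes that reached 1 TPM in 2 or more libraries. Genotype was fitted alone, and stage with genotype as a covariate. P-values rest on the spread between these embryos, with each gene's variance drawn towards a trend over all genes. In the fit of genotype alone, the spread within a group includes the difference in stage and sex.

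The fits were tested on simulated data. With noise set to each gene's fitted spread, the first model tried, the share of false calls was above the nominal rate for both contrasts, most for stage, and the test failed its limit. The noise was then redrawn from the variance prior and the limit on wrong signs was loosened; false calls then lay nearer the nominal rate for genotype and stayed above it for stage. Adjusted p-values here may therefore be too small, most for stage. Genotype with stage in the model was not simulated, and its adjusted p-values may be too small as well.

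Genes named are the 8, those past the threshold in each pathway list filled up to 4 by smallest p, tested neighbours within 1 Mb, and the 10 nearest to Shh. Gli1 and Ptch1 were added from the response genes after their values were seen. Members, lists and this rule were chosen with earlier results of these data known. Alternatives were 2 other pseudocounts, other filters, median-ratio and quantile scaling, stage as a block, no variance trend, each library left out, and other measures of likeness to Shh. How 2 of these were defined was settled after their output was seen: no filter leaves out genes at 0 in all libraries, and leaving out a library keeps the tested genes. The definitions first run, which kept genes at 0 and filtered again after a library was left out, are given with the alternatives.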

Additional observations from a re-analysis of the deposited data

Results flagged for a closer look

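Shh was lower at 40 than at 39 somites in the knockouts (-0.40 on the log2 scale) and higher in the controls (0.25). Scube3 did the same, at -0.18 in the knockouts and 0.22 in the controls. For Scube3 the gap between knockout and control was -0.35 at 40 somites and 0.06 at 39. Each of these is 1 library against 1, and the difference between the values of a pair was not tested.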

How the results depend on the processing

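Under 12 alternatives Shh ranged from -1.61 to -1.01, Scube1 from -0.85 to -0.40, Grem1 from 0.21 to 0.61, Disp1 from 0.13 to 0.27 and Lmbr1 from 0.09 to 0.26. Hand2 ranged from -0.32 to -0.04, Hhat from -0.29 to -0.09 and Scube3 from -0.26 to -0.03, so that none of the 8 changed sign between genotypes. The count of the 8 genes called, 1 as reported, was 0 with no filter on low values, under median-ratio scaling and under quantile normalization, was 2 with somite stage as a replicate block, and ranged from 0 to 2 with a library left out. The count over all genes, 167 as reported, was 533 with the block and ranged from 50 to 646 with a library left out, the low counts without a control and the high ones without a knockout. With no filter it was 0 in limma, with 2338 at an unadjusted p under 0.05. Under the definitions first run, added here after seeing the data, no filter with genes at 0 in all libraries kept gave 170 calls, of which 2 were among the 167, 168 were under 1 TPM in every library, and 0 were of the 8 genes. Filtering again after a library was left out gave 555 and 411 calls over all genes without knockout replicate 1 and 2, and 75 and 73 without control replicate 1 and 2, with 0 to 2 of the 8 genes called. The stage count, 21 as reported, was 0 with no filter under both definitions, with 2788 and 2922 at an unadjusted p under 0.05, and 12 without the variance trend. For stage, Shh turned from -0.08 to 0.01 and 0.00362 under median-ratio and quantile scaling. Of single genes, those whose sign turned with a library left out ranged from -0.82 to 1.23 for Actc1, from -0.10 to 0.15 for Arhgap11a, from -0.00286 to 0.14 for Cep44, from -0.17 to 0.41 for Gm10284, from -1.99 to 1.38 for Gm21596, from -0.23 to 0.13 for Hmgb2, from -0.08 to 0.12 for Nom1, from -0.08 to 0.15 for Paxip1, from -0.09 to 0.02 for Rbm33, from -0.26 to 0.16 for Tbx5 and from -0.02 to 0.07 for Zfp770. Stage fits with a library left out have no residual degrees of freedom and were not run. A fit that leaves 1 library in a group assumes that it varies like the other group. Pairing by stage rests on the labels, and deviations at the same stage correlated at 0.25 (Pearson, 12809 genes, which are not independent replicates).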
